A study of Homo sapiens with 17 samples.

Results

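Control IgG pull-downs of poly(A) RNA were compared between TDP43 knockdown and WT HEK293T cells, a human embryonic kidney line. They show which transcripts were recovered by beads that carry no antibody to the modification under study. The libraries were chosen by their labels: 3 siTDP43 IgG and 2 WT IgG libraries, 5 of the 17 in the series. The other 12 libraries were input RNA and anti-ac4C immunoprecipitates (IP), 3 of each per genotype. In the siTDP43 cells TARDBP, the gene that encodes TDP43, was targeted by transfected siRNA. The WT cells carry the genotype WT in the labels, which do not say whether they received the study's negative control siRNA. Knockdown therefore cannot be told apart from transfection, or from any difference in culture, pull-down or amplification between the genotypes. Purified poly(A) RNA of both genotypes was incubated with protein A beads carrying a rabbit monoclonal isotype control IgG, and what stayed on the beads was amplified by SMART-seq2 from oligo(dT). According to the methods the RNA recovered on the beads was too dilute to be measured, so library counts give shares of what was recovered and not amounts. In such bulk libraries a smaller share of a transcript and a larger share of the others cannot be told apart, nor can fewer cells with a transcript and less of it per cell.

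N4-acetylcytidine (ac4C) is a modified RNA base made by the acetyltransferase NAT10, and acRIP-seq enriches RNAs that carry it with an antibody. An isotype IgG has no binding site for ac4C, so the RNA it recovers is the nonspecific background against which the IP is judged. TDP43 is a nuclear RNA-binding protein with a known preference for UG-rich RNA, and it acts in splicing and RNA stability.

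The sense strands of both siTDP43 siRNAs are shown because they define the knockdown group, with the overhanging bases in capitals.
siTDP43 siRNA 1: ggcugguagaaggaauucuTT
siTDP43 siRNA 2: gucacagcgacauaugauaTT
Over their 19 paired bases, each matched TARDBP on the plus strand of chromosome 1 in hg19. The first matched chr1:11073948-11073966 and the second chr1:11078873-11078891. Both sites lay in the coding sequence, in exon 2 and exon 4 of the canonical transcript.

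TARDBP itself did not separate the IgG libraries. Its CPM (counts scaled to a common library size by TMM) was 74.5 and 80.7 in WT IgG and 81.8, 61.6 and 53.4 in siTDP43 IgG, so the groups overlapped. The log2 change was -0.24 ± 0.17 (SE; edgeR quasi-likelihood test, adjusted p = 0.197), and the exact two-sided permutation p over the 5 libraries was 0.6. In the inputs, TARDBP was 156.8 to 164.6 CPM in WT and 103.8 to 111.0 CPM in siTDP43, which did not overlap. That input change was -0.57 on the log2 scale (edgeR adjusted p = 6.55e-13), under the fold change of 2 used for calls.

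The IgG libraries held 9466855 and 9022250 counts in WT and 3013989 to 3436811 in siTDP43. A count of at least 1 was found for 13337 and 13253 genes in WT IgG against 10247 to 10382 in siTDP43 IgG. At the depth of the shallowest library the numbers were 12100 and 12067 against 10220 to 10296, and the groups stayed apart. The counts were also more concentrated in siTDP43 IgG. The 100 highest genes of each library took 27.6 and 28.6% of its counts in WT IgG and 39.6 to 39.8% in siTDP43 IgG. In WT IgG 482 and 454 genes held 50 percent of the counts, in siTDP43 IgG 193 to 195. With 3 libraries against 2, the exact permutation test cannot give a two-sided p below 0.2, the value found for each of these measures. In IP the 100 highest genes took 35.1 to 36.5% in siTDP43 and 26.6 to 28.1% in WT, the direction seen in IgG. The inputs went the other way, at 22.6 to 22.8% in siTDP43 and 27.1 to 27.9% in WT. Fewer genes had a count in siTDP43 IP (12920 to 13168 against 15087 to 15122) and siTDP43 input (15432 to 15643 against 16122 to 16351), at differing depths. IgG replicates within a genotype had a Spearman correlation of 0.948 to 0.963 over genes. Of 8 HEK293T markers, 6 had over 3 counts in every IgG library of either genotype. Their summed CPM was 1523 to 1539 in WT IgG and 544.5 to 572 in siTDP43 IgG, and it was also lower in siTDP43 than in WT input, at 687.8 to 733.4 against 1306 to 1342. Of 24 markers of fibroblasts, blood cells, hepatocytes and keratinocytes, 8 were at 0 in both WT IgG libraries and 18 in all siTDP43 IgG libraries. Their summed CPM was 105 to 111.1 in WT IgG and 40.8 to 60.6 in siTDP43 IgG. It was 145.5 to 148.5 in WT input and 19.6 to 21.5 in siTDP43 input. Much of the WT sums was KRT10, whose exons overlap TMEM99, at 123.8 to 128.1 CPM in input and 58.7 and 58.9 CPM in IgG.

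PTMA, which encodes the small acidic chromatin protein prothymosin alpha, was among the 10 genes with the largest shares of counts in WT IgG and was lower in siTDP43 IgG. It took 1.03 and 1.21% of the WT IgG counts and 0.280, 0.279 and 0.273% of the siTDP43 IgG counts, and the groups did not overlap. The WT mean was 1.12 ± 0.129% (SD, n = 2 libraries) and the siTDP43 mean 0.277 ± 0.00364% (SD, n = 3), a ratio of 4.05 with the smallest exact permutation p that 5 libraries allow, 0.2. Leaving the 10 other genes with the highest shares out of the total gave a ratio of 3.96. After scaling, PTMA was 8547 and 10067 CPM in WT IgG and 3196, 3176 and 3077 CPM in siTDP43 IgG, 2.96-fold lower (log2 -1.56 ± 0.06, edgeR adjusted p = 3.85e-13). In the inputs PTMA differed by -0.11 on the log2 scale, and the IgG change minus the input change was -1.51 (edgeR adjusted p = 8.12e-16). The gene lies at chr2:232573235-232578250 (hg19), and its exons overlap annotated MIR1244 genes. PTMA has processed copies elsewhere in the genome and only uniquely aligned reads were counted, so its level is uncertain to that extent.

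Across genes, 10790 of the 23368 in the table passed the count filter in the IgG libraries. Genes were called when the edgeR adjusted p was under 0.05 and the fold change above 2. Of those tested, 2787 (25.8%) were higher and 3984 (36.9%) lower in siTDP43 IgG, with a median log2 change of -0.31. Scaling by total counts in place of TMM moved that median to -0.77 and the calls to 2157 higher and 4866 lower, so the share of calls that were higher went from 41.2 to 30.7%. Changes below are TMM-scaled. In 360 of the higher genes every WT IgG library had at most 3 counts, and in 1208 of the lower genes every siTDP43 IgG library did. Such a gene is described as at the floor, where a fold change is only a bound and the fitted value depends on the prior count. A fold given as "at least" sets the genotype at the floor to 3 counts per library. If mates were counted one by one, 3 counts are fewer than 3 fragments. Bounds that allow for this would be smaller. The WT IgG libraries were the deeper ones, so a floor of equal counts is reached sooner in siTDP43 IgG. Among the 9222 genes with neither genotype at the floor, 2427 were higher and 2776 lower, with a median of -0.11. Nothing in the labels says whether the libraries of a genotype came from separate cultures, so the p-values measure only the spread between these libraries.

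**Figure D1:**
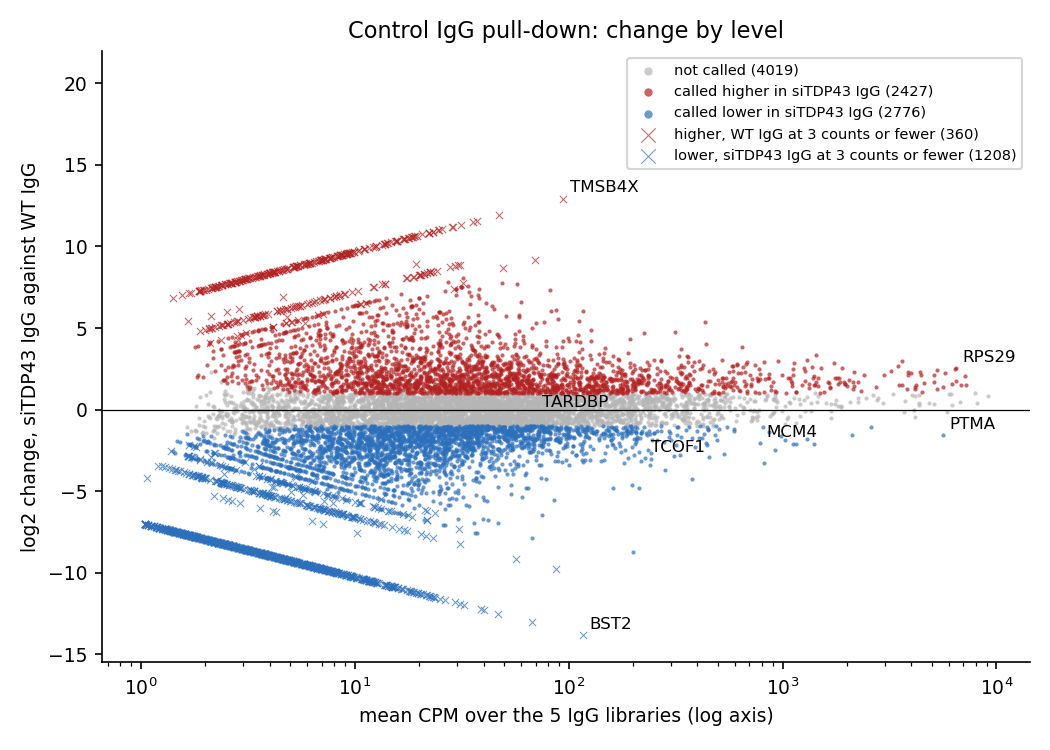
Log2 change of each of the 10790 genes tested (siTDP43 IgG against WT IgG) by its mean CPM over the 5 IgG libraries, on a log axis. Red and blue mark genes called higher and lower; crosses mark genes with a genotype at 3 counts or fewer, whose fitted values are not measured folds. PTMA stands among the genes of highest CPM below 0 and TARDBP lies near 0.

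Most messages for ribosomal proteins and for oxidative phosphorylation subunits were called higher in siTDP43 IgG. Of 78 cytosolic ribosomal protein genes tested, 51 (65.4%) were higher, 1 was lower and 26 were not called, with a median of 1.37, beside 25.8% higher and 36.9% lower over all genes. They took 18.3 and 18.8% of the WT IgG counts and 31.4 to 31.6% of the siTDP43 IgG counts. RPS29, a subunit of the small ribosomal particle, was 1678 and 1683 CPM in WT IgG and 9548, 9953 and 9607 CPM in siTDP43 IgG. It was 5.77-fold higher (log2 2.53 ± 0.04, edgeR adjusted p = 3.39e-16), with no overlap of the groups. RPL39, of the large particle, was 2486 and 2466 CPM in WT IgG and 10422, 9326 and 10922 CPM in siTDP43 IgG, 4.13-fold higher. RPL10, whose exons overlap DNASE1L1, showed the largest rise of the list, from 216.5 and 224.6 CPM to between 2059 and 2346 CPM. RPL36A was the member that fell (log2 -2.20), and its exons overlap a readthrough gene with HNRNPH2. RPL8 and RPL13, which were among the 10 genes with the largest shares in WT IgG, changed by 0.39 and 0.85 and were not called. Under total count scaling 37 members were called higher, with a median of 0.92.

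Nuclear-encoded oxidative phosphorylation subunits moved in the same direction, with 44 of 76 (57.9%) higher, 1 lower and 31 not called (median 1.42). Their share of counts was 3.33 to 3.40% in WT IgG and 6.36 to 6.38% in siTDP43 IgG. ATP5I, a subunit of the ATP synthase, was 1783 and 1718 CPM in WT IgG and 8404, 8238 and 8559 CPM in siTDP43 IgG, 4.80-fold higher with no overlap. NDUFA13, of complex I, was 2.59-fold higher (log2 1.38 ± 0.05, edgeR adjusted p = 9.76e-13). NDUFC2 was the member that fell, by 2.20 on the log2 scale, and its exons overlap those of a readthrough transcript. Proteasome subunits had 18 of 31 (58.1%) higher and 1 lower, with a median of 1.10. PSMB1, a core particle subunit, was 606.9 and 631.9 CPM in WT IgG and 1900 to 2032 CPM in siTDP43 IgG. Tubulins, actins and actin-binding peptides had 9 of 18 higher and 0 lower (median 0.85), where edgeR gave 1 lower at an unadjusted p under 0.05 and DESeq2 called 0. TMSB10, an actin-binding peptide, was 2.42-fold higher. Under total count scaling the higher calls were 38 of 76 for oxidative phosphorylation, 8 of 31 for the proteasome and 5 of 18 for tubulins and actins. Over all genes they were 2157 of 10790 under that scaling, a share nearer those of the last 2 lists. The list medians were 0.96, 0.64 and 0.39, beside -0.77 over all genes. NDUFA13 (log2 0.92) and TMSB10 (0.82) were then not called.

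Acidic chromatin and histone-binding proteins, the class to which PTMA belongs, went the other way, with 1 of 26 higher and 13 lower (median -0.94), or 3.85 and 50% beside 25.8 and 36.9% over all genes. The list took 3.42 and 3.73% of the WT IgG counts and 1.12 to 1.14% of the siTDP43 IgG counts. TCOF1, which encodes the nucleolar protein treacle, was 467.9 and 482.9 CPM in WT IgG and 59.6, 63.2 and 61.0 CPM in siTDP43 IgG. That was 7.76-fold lower (log2 -2.96 ± 0.09, edgeR adjusted p = 8.28e-14) with no overlap of the groups. NPM1, a nucleolar chaperone that with PTMA had the highest CPM of the list (a scale that is not per length), changed by -0.49 and was not called. HMGN2, a nucleosome-binding protein, was the member that rose (log2 1.21), and it was not called under total count scaling (0.75). MCM4, a subunit of the replicative helicase, was 1458 and 1445 CPM in WT IgG and 354.0, 344.5 and 337.0 CPM in siTDP43 IgG, 4.21-fold lower, while its list of 36 DNA replication proteins had 4 higher and 8 lower.

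Interferon-stimulated genes, which are switched on by antiviral signalling, had the lowest median of the lists. Of 19 tested, 13 were lower and 3 higher (68.4 and 15.8%, beside 36.9 and 25.8% over all genes). Their median was -5.87, or -2.18 when the 8 genes at the floor in a genotype were set to their bounds. BST2, the tethering factor that holds virus particles on the cell, had 3270 and 3234 counts in WT IgG and 0 in every siTDP43 IgG library, at least 279-fold lower. ISG15, a ubiquitin-like modifier, had 5950 and 5130 counts in WT IgG and 2, 2 and 6 in siTDP43 IgG. IFIT1, an RNA sensor, had 1977 and 1762 counts against 0 in all 3, at least 160.2-fold lower. IFIT5 and IFI44L were among the members that rose. In the inputs 12 of these 19 were lower and 3 higher (median -2.27), beside 21.6 and 15.5% over all genes. BST2 differed there by -7.31 on the log2 scale. The IgG change minus the input change was called lower in 6 of the 19 and higher in 4. These shares were near the 32.1 and 21.9% over all genes in that fit.

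Other lists were split or near the level of all genes. Lysosomal membrane proteins and enzymes had 7 of 32 higher and 13 lower (21.9 and 40.6%, near the 25.8 and 36.9% over all genes; median -0.67). Translation initiation factors had 8 of 38 higher and 7 lower (median 0.35), and elongation factors 3 of 16 higher and 5 lower (median -0.13). EEF1A1, which delivers aminoacyl-tRNA to the ribosome, was 2507 and 2793 CPM in WT IgG and 4621 to 5090 CPM in siTDP43 IgG, a log2 change of 0.90 that was not called. Heat shock chaperones had 4 of 25 in each direction (median 0.26), with HSPA8 the largest rise at 6.91-fold. Members of the hnRNP and SR splicing proteins were higher in 6 and lower in 3 of 34 (median 0.14). Glycolytic enzymes had 6 of 17 higher and 4 lower (median 0.51), sterol synthesis enzymes 6 of 21 and 4 (median 0.52), and mitotic spindle and kinetochore proteins 7 of 28 and 8 (median -0.04). The medians of the initiation factor, chaperone and splicing lists turned negative under total count scaling, at -0.11, -0.20 and -0.32. Replication-dependent histones, whose messages lack a poly(A) tail, had 3 of 12 higher and 6 lower, with 6 at the floor in a genotype.

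Long noncoding RNAs and snoRNA hosts gave 5 rises and 5 falls among 18. SNHG8 rose from 141.9 and 137.3 CPM to between 1027 and 1053 CPM, and SNHG1 fell from 459.9 and 476.6 CPM to between 47.6 and 57.0 CPM. Among small RNA polymerase III transcripts and structured noncoding RNAs, 4 of 9 were higher and 3 lower (median 0.29, and -0.16 under total count scaling). The entry named BCYRN1, after a brain cytoplasmic RNA with an internal A-rich stretch, had 171 and 134 counts in WT IgG and 529, 531 and 509 in siTDP43 IgG. Its 191 exon bases are spread over chrX:70430035-70948962 (hg19), so the source of these counts is uncertain.

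**Figure D2:**
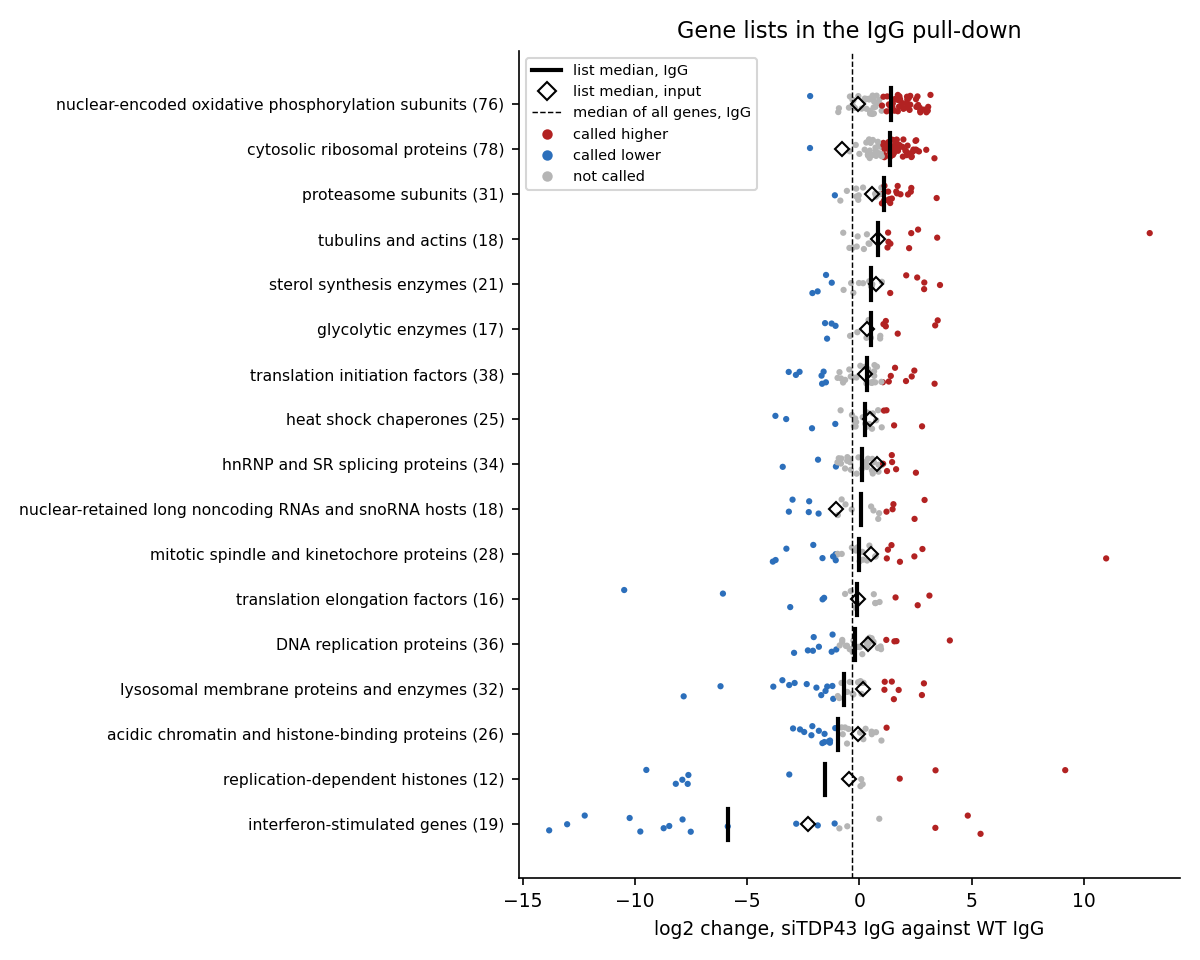
Log2 change in siTDP43 IgG against WT IgG of each tested member of 17 gene lists (number tested in parentheses), red where called higher and blue where called lower. Black bars are list medians, diamonds the medians of the same genes in the inputs, and the dashed line the median of all genes tested in IgG, -0.31. Ribosomal protein genes have an IgG median of 1.37 and an input median of -0.76.

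The enzyme and candidate adaptors of the study were recovered at differing levels. NAT10 was 74.5 and 51.2 CPM in WT IgG and 61.0, 73.0 and 58.4 CPM in siTDP43 IgG, and the groups overlapped (log2 0.03). PCBP1, an RNA-binding protein with KH domains, was 435.2 and 477.4 CPM in WT IgG and 129.5, 127.0 and 124.6 CPM in siTDP43 IgG. It was 3.59-fold lower (log2 -1.85 ± 0.09, edgeR adjusted p = 1.17e-11) with no overlap. Its homolog PCBP2 changed by -0.98, just under the fold change for a call, and THUMPD1, a tRNA acetylation cofactor, by -0.85. THUMPD1 was called when siTDP43 IgG replicate 2 was left out, with a change of -1.10. In the inputs NAT10 was called higher (log2 1.12) and PCBP2 lower (-1.33), while PCBP1 (-0.82) and THUMPD1 (0.745) were not called. The IgG change minus the input change was called lower for NAT10 (-1.15), PCBP1 (-1.075) and THUMPD1 (-1.65). For PCBP2 it was 0.31 and not called.

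Among 7 transcripts that the study followed by qPCR, UPF3B, RRBP1 and RBBP6 were taken there as highly acetylated. UPF3B, a nonsense-mediated decay factor, was 376.1 and 410.6 CPM in WT IgG and 39.9, 37.8 and 42.9 CPM in siTDP43 IgG, 9.76-fold lower (log2 -3.29 ± 0.11, edgeR adjusted p = 1.34e-13). RRBP1, a ribosome-binding protein of the endoplasmic reticulum, was 70.2 and 88.4 CPM in WT IgG and 34.1, 40.8 and 33.8 CPM in siTDP43 IgG, 2.19-fold lower. Without WT IgG replicate 2 that change was -0.96 and no longer called. RBBP6, a ubiquitin ligase of the 3′-end processing machinery, changed by -0.62 and was not called.
ZFP36L2, a zinc finger decay factor, rose from 6.13 and 8.47 CPM in WT IgG to 27.3, 29.5 and 30.2 CPM in siTDP43 IgG (log2 1.99 ± 0.29, edgeR adjusted p = 1.22e-05). LAMP1, a lysosomal membrane protein, was 28.6 and 36.4 CPM against 28.6, 36.3 and 28.5 CPM, and the groups overlapped. In the inputs 3 of the 7 were called lower, LAMP1 (log2 -2.89), RRBP1 (-1.95) and ZFP36L2 (-1.295), and the rest were not called. The IgG change minus the input change was called higher for LAMP1 (2.77) and ZFP36L2 (3.24) and lower for UPF3B (-2.705). For the rest it was not called, with RRBP1 at 0.77. GAPDH, used as a transcript of low acetylation, was 2561 and 2354 CPM in WT IgG and 3138 to 3332 CPM in siTDP43 IgG, a log2 change of 0.41 that was not called and was -0.05 under total count scaling.

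**Figure D3:**
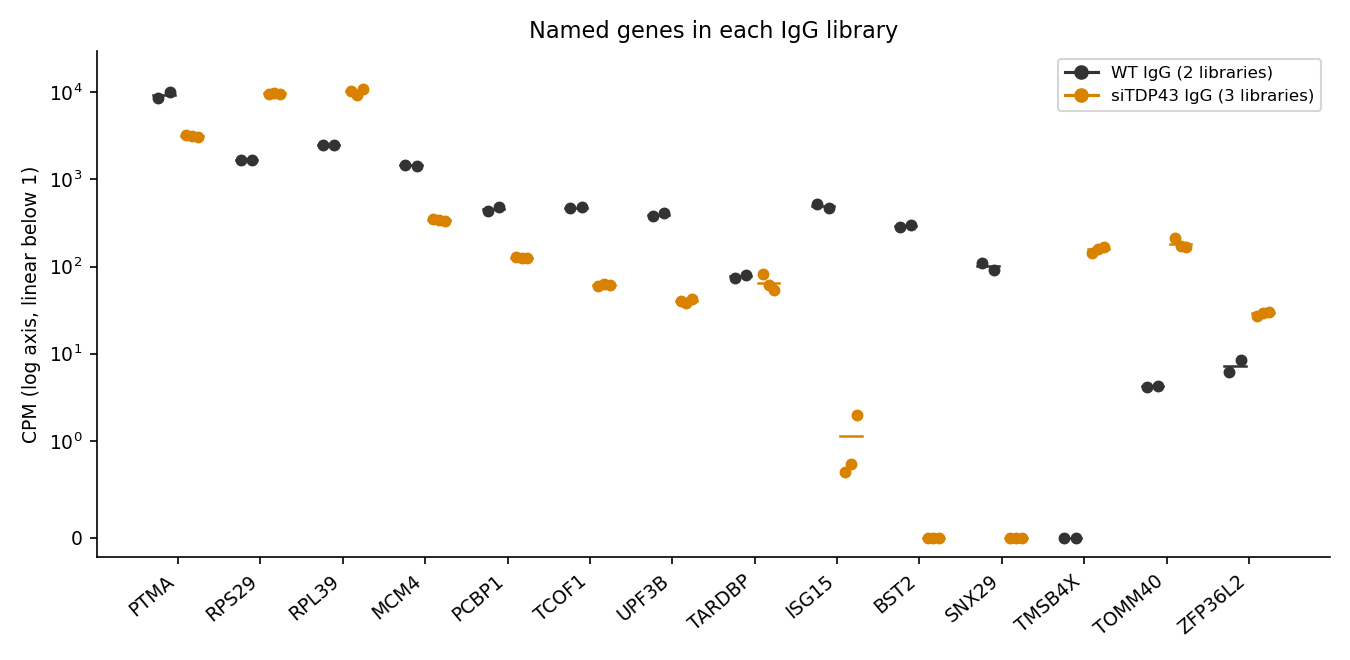
CPM of 14 named genes in each IgG library on a log axis that is linear below 1; points are libraries and bars group means. PTMA, PCBP1, TCOF1 and UPF3B lie higher in both WT IgG libraries, RPS29 and RPL39 higher in all siTDP43 IgG libraries, TARDBP overlaps, and BST2 and SNX29 are at 0 in all siTDP43 IgG libraries.

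Many genes were held by the IgG libraries of a single genotype. Genes with at least 30 counts in every library of a genotype and at most 3 in every library of the other numbered 1168 for WT IgG and 113 for siTDP43 IgG. The libraries differed in depth, which moved these counts: with WT IgG thinned to the siTDP43 IgG total they were 615 and 178, and thinned to its scaled library size 433 and 216. TMSB4X, an actin-sequestering peptide, had 0 counts in both WT IgG libraries and 426, 425 and 508 in siTDP43 IgG, at least 584.4-fold higher. OXCT1, a mitochondrial enzyme of ketone use, had 0 and 0 counts against 240, 210 and 230, at least 292.7-fold higher. Both were also higher in the siTDP43 inputs, by 5.51 and 7.46 on the log2 scale. POLR1A, the catalytic subunit of RNA polymerase I, had 2 and 2 counts against 198, 234 and 276, at least 304.9-fold higher, and its input rise was 1.63.

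Other such genes were not called in the inputs. SNX29, a sorting nexin, had 1244 and 1006 counts in WT IgG and 0 in all 3 siTDP43 IgG libraries, at least 96.3-fold lower, with an input change of 0.09 (edgeR adjusted p = 0.598). TTC39A, a tetratricopeptide protein, had 0 and 0 counts against 162, 222 and 144, at least 230.5-fold higher, with an input change of -0.48 that was not called. EEF2K, the kinase of elongation factor 2, had 332 and 310 counts against 0, 0 and 0, at least 27.5-fold lower, with an input change of 0.34. Of the 1168 genes held by WT IgG, 430 were lower in the siTDP43 inputs too, 576 were not called there, 85 were higher and 77 were too low to test. Of the 113 held by siTDP43 IgG, 40 were higher in the siTDP43 inputs, 54 were not called, 12 were lower and 7 were too low to test. Over the 10616 genes tested in both IgG and input, 2103 were lower and 1545 higher in the siTDP43 inputs.

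The zeros of siTDP43 IgG were in part on the same genes in its 3 libraries. Among 7534 genes with at least 100 counts in both WT IgG libraries, 554 to 620 were at 0 in each siTDP43 IgG library, 804 in any of them and 392 in all 3. For 171 of these 392, the siTDP43 inputs held a mean of at least 100 counts. In the reverse direction, 3439 genes had at least 100 counts in every siTDP43 IgG library, and 11 of them were at 0 in both WT IgG libraries. This contrast was smaller with WT IgG thinned, which also changed the genes that met the minimum. Thinned to the siTDP43 IgG total, 90 of 4722 genes were at 0 in all 3 siTDP43 IgG libraries and 20 of 3439 in both WT IgG libraries. Thinned to its scaled library size, these were 38 of 3870 and 21 of 3439. At a minimum of 300 counts, 70 of 4607 and 1 of 1444 were at 0 in the deposited counts. With WT IgG thinned to the siTDP43 IgG total these were 7 of 1964 and 2 of 1444. Thinned to its scaled library size, they were 3 of 1409 and 1 of 1444. Whether the libraries of a genotype shared a pull-down or an amplification is not given in the sources used here, and its part in these shared zeros was not tested.

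The inputs were fitted in their own 6 libraries, none of which entered the IgG comparison. There, 15.5% of genes were higher and 21.6% lower in siTDP43. Over the 10616 genes tested in both, 562 genes were higher in IgG and in input, which is 20.7% of the IgG rises and 36.4% of the input rises. Genes lower in both numbered 1123, 28.9% of the IgG falls and 53.4% of the input falls. In opposite directions were 361 genes higher in IgG and lower in input, and 357 the other way. The log2 changes had an interquartile range of 3.0 in IgG against 1.43 in input, and their Spearman correlation across these genes was 0.24 (Pearson 0.29). A joint fit of the 11 IgG and input libraries tested the IgG change beyond the input change directly. It called 21.9% of 14672 genes higher and 32.1% lower. It shares the 5 IgG libraries with the IgG comparison, so its calls are not independent of that one.

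Ribosomal protein genes differed between IgG and input. In the inputs 0 of the 78 were higher, where edgeR gave 8 higher at an unadjusted p under 0.05 and DESeq2 called 0, and 25 were lower (median -0.76), and the IgG change beyond input was higher in 70 and lower in 1 (median 1.98). RPS2, of the small particle, was 4738 to 5076 CPM in WT input and 489.8 to 525.3 CPM in siTDP43 input. In IgG it was 3253 and 3289 CPM in WT and 9467, 9220 and 8827 CPM in siTDP43, so the groups were apart in opposite directions. The difference between the changes was 4.72 ± 0.06 on the log2 scale (edgeR adjusted p = 8.63e-29). TOMM40, the channel of the outer mitochondrial membrane, was 76.5 to 77.7 CPM in WT input and 12.4 to 13.9 CPM in siTDP43 input. It was 4.20 and 4.23 CPM in WT IgG and 210.9, 174.3 and 166.9 CPM in siTDP43 IgG. Input and IgG libraries were scaled in separate fits, so only the directions within each are compared. Among the genes that fell in IgG, PFKFB3, a regulator of glycolysis, had 548 and 468 counts in WT IgG and 0 in all siTDP43 IgG libraries, while it was higher in the siTDP43 inputs. Of the 6415 genes tested in both with a mean of at least 100 IgG counts, 302 were called in opposite directions with the difference called. Of these, 138 were higher and 164 lower in IgG.

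**Figure D4:**
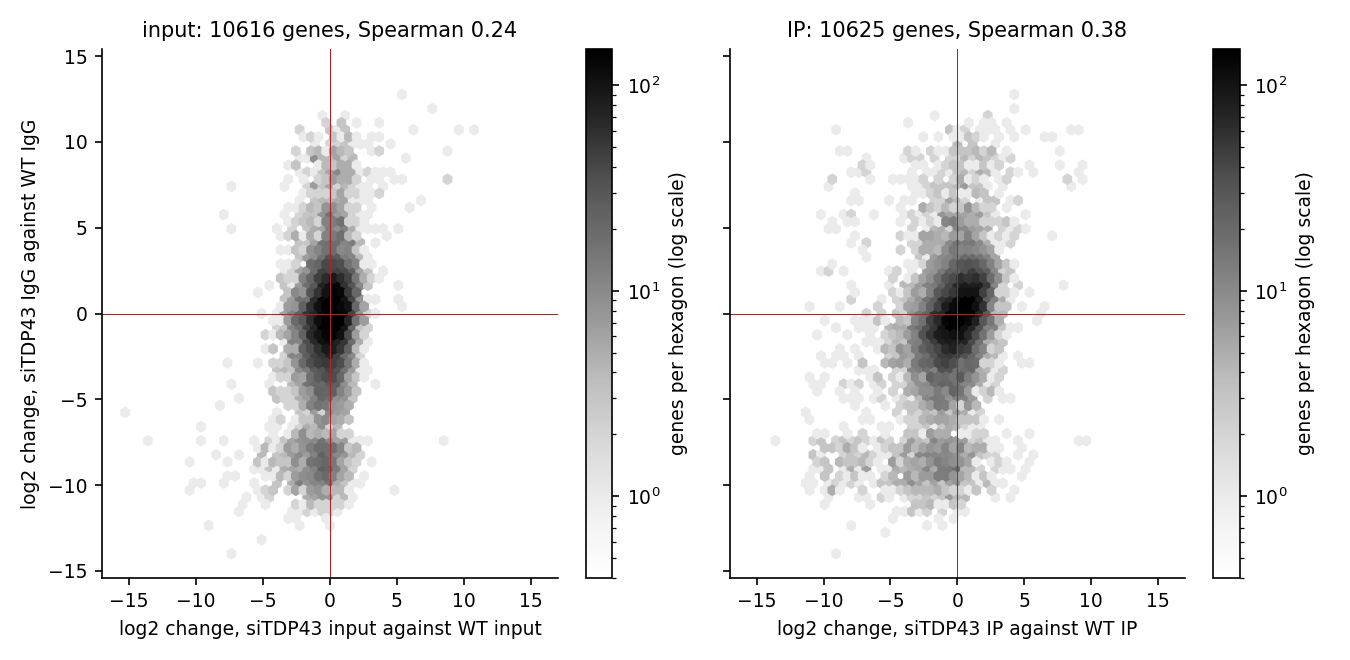
Log2 changes in IgG (vertical) against those in input (left, 10616 genes) and in IP (right, 10625 genes), shaded by the number of genes per hexagon on a log scale. The IgG changes spread more widely than either, and Spearman correlations across genes are 0.24 with input and 0.38 with IP.

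The change in the anti-ac4C IP was also fitted in libraries of its own. In IP 22.1% of genes were higher and 33.7% lower in siTDP43. Under total count scaling the share of IP calls that were higher was 27.3% in place of 39.7%. Of the 10625 genes tested in both, 1069 were higher in IgG and IP (39.3% of the IgG rises and 44.8% of the IP rises) and 1740 lower in both (44.8% of the IgG falls and 58.9% of the IP falls), while 422 lay in each of the opposite corners. The Spearman correlation across genes was 0.38, or 0.48 over the 6414 genes with a mean of at least 100 IgG counts. Ribosomal protein genes were higher in IP in 58 of 78 and lower in 0 (median 1.44; edgeR gave 5 lower at an unadjusted p under 0.05 and DESeq2 called 0), and oxidative phosphorylation subunits higher in 46 of 76 and lower in 1 (median 1.53). The fit of IgG and IP together called 22.6% of 13847 genes higher and 28.2% lower in IgG beyond IP, and it too shares the IgG libraries. In mean CPM over the 10790 genes, WT IgG correlated with siTDP43 IgG at 0.62, with WT IP at 0.78 and with WT input at 0.67, and siTDP43 IgG with siTDP43 IP at 0.82 (Spearman).

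Transcripts with a high IP signal in WT cells were more often lower than higher in siTDP43 IgG. Genes were ordered by the ratio of WT IP to WT input CPM, from libraries that the IgG comparison does not use. Among the 2124 genes with the lowest ratios, 33.5% were higher and 27.8% lower in siTDP43 IgG (median 0.14), and among the 2124 with the highest ratios 17.1% were higher and 46.9% lower (median -0.86), beside 25.5 and 36.7% over all 10619 genes so ordered. In the 150 genes with WT IP at least 16 times WT input, 17 (11.3%) were higher and 84 (56.0%) lower in siTDP43 IgG. Their median level was 44.2 and 45.9 CPM in WT IgG and 18.9 to 20.1 CPM in siTDP43 IgG. Their WT IP levels chose them, so their change in IP is not read as a result. UPF3B was 1962 to 2285 CPM in WT IP and 56.3 to 63.1 CPM in WT input. TCOF1 was 2714 to 2978 CPM in WT IP and 80.9 to 82.9 CPM in WT input. These levels come from separate scalings of IP and input. RRBP1 and RBBP6 likewise had high WT IP, at means of 1222 and 1139.5 CPM against 17.2 and 20.4 CPM in WT input. Their IP changes were -6.76 and -5.16 on the log2 scale, and their IgG changes lay above these by 5.66 and 4.57, both called. Both differences are in part fixed by the high WT IP level.

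Genes higher in siTDP43 IgG had a shorter exon length than those that were lower. Exon length counts all annotated exon bases of a gene and is not the length of a recovered transcript. Genes called higher had a median exon length of 2421 bases, those called lower 3817 bases and those not called 3006 bases. Of the 2158 shortest genes (up to 1767 bases) 41.0% were higher and 19.7% lower, with a median log2 change of 0.62. Of the 2158 longest (from 5411 bases) 16.1% were higher and 53.0% lower, with a median of -1.16. Among genes with a mean of at least 100 counts these medians were 0.62 and -1.13. The mean exon length weighted by counts was 2840 and 2828 bases in WT IgG and 2010 to 2015 bases in siTDP43 IgG, with no overlap. Across genes the Spearman correlation of exon length with the log2 change was -0.25 in IgG, 0.08 in input and -0.21 in IP. GC content had a correlation of 0.03 in IgG, against -0.32 in input and -0.31 in IP. The hexamer TGTGTG, counted on the sense strand of exons as a UG-rich motif, had a correlation of -0.04 between its density and the IgG change. It occurred in 60.6% of the genes called higher, 71.7% of those called lower and 67.2% of all tested.

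Length and the WT IP ratio were themselves related across genes (Spearman 0.28), so the IgG change was read over classes of both. With each divided into 3 classes of equal size, the median IgG change of short genes was 0.53 where the WT IP ratio was low (1618 genes) and 0.02 where it was high (792 genes). Among long genes it was -0.38 where the ratio was low (672 genes) and -1.23 where it was high (1646 genes). Ribosomal protein and oxidative phosphorylation genes had median exon lengths of 806 and 925.5 bases against 3129 bases for all genes tested, and the part of length in the changes of these lists was not tested.

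**Figure D5:**
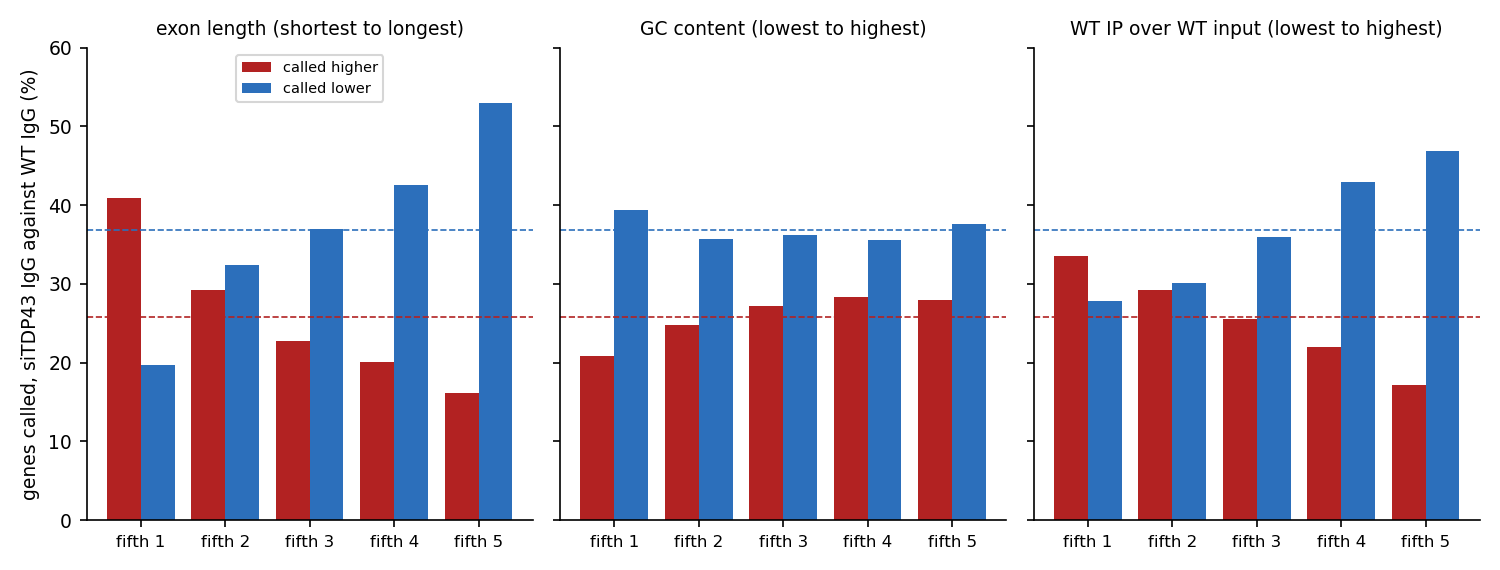
Percent of genes called higher (red) and lower (blue) in siTDP43 IgG, in 5 equal classes of exon length, GC content and the WT IP over WT input ratio, with dashed lines at the shares over all genes tested, 25.8 and 36.9%. Rises drop from 41.0 to 16.1% and falls climb from 19.7 to 53.0% from the shortest to the longest genes, whereas over GC content rises lie between 20.8 and 28.4%.

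Of the markers checked, 3 of the 6 HEK293T markers tested were lower and 0 higher (edgeR gave 1 higher at an unadjusted p under 0.05 and DESeq2 called 0). KRT8, a simple epithelial keratin, had 4800 and 3760 counts in WT IgG and 44, 40 and 36 in siTDP43 IgG, and was lower in input as well (log2 -2.30). The exons of KRT8 overlap those annotated for KRT18. In the inputs 2 of these 6 markers were lower and 1 higher. NEFL, a neurofilament gene, was the higher one (log2 1.52), and it was not called in IgG (-0.63). Among the markers of other cell types, 5 were tested, of which 2 were higher and 3 lower. HBB, the beta globin of red cells, had 0 and 0 counts in WT IgG and 20, 24 and 20 in siTDP43 IgG, at least 27.8-fold higher. It was at 0 in every input and WT IP library and had 6 to 22 counts in siTDP43 IP. According to the methods, transcribed β-globin probes were added to the RNA before the pull-down, and their part in the HBB counts was not tested.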

How the data were processed

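acRIP-seq counts of poly(A) RNA from 17 HEK293T libraries were used. The authors trimmed reads with Trim Galore 0.6.7, aligned them with STAR 2.7.10a to hg19 per the methods (the submitters' processing notes name mm10, but the positions in the table fit hg19), kept unique alignments, ran featureCounts 2.0.2 per gene and deposited raw counts with no normalization. The annotation release, strand setting and handling of pairs are not given in the sources used here; without strand, antisense and overlapping genes cannot be separated, and 3757 of 23368 genes share exon bases with another. Of low counts (1 to 20), 81.3 to 95.9% per library were even numbers; mates appear to be counted one by one. There are no molecular identifiers. Floors of 3 counts do not cover all counting error if mates were counted one by one, and they cover no other error.

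Groups and replicate numbers came from sample titles. The gene lists and named genes were chosen with earlier results of these data known; the ordering by WT IP ratio and the count of shared zeros were added after the values were seen. The test was edgeR's two-sided quasi-likelihood F test (version 4.0.16, R 4.3.3) after TMM scaling and filterByExpr (minimum count 10). Benjamini-Hochberg adjustment covered every gene tested. IgG (5 libraries), input (6) and IP (6) were fitted separately, and the differences between changes in 11 libraries each. Replicates differed beyond counting noise (chi-square per degree of freedom 3.59 to 6.92 in IgG). The tests were checked on data simulated at gene means pooled over both genotypes, with known changes in a small share of genes. That check does not cover a comparison in which 62.75% of genes were called, as in IgG. Alternatives were DESeq2 1.42.0, its size factors, total count scaling, other filters and call rules, a replicate block, each library left out, all 17 libraries, halved counts, a GC trend removed, WT IgG thinned to the siTDP43 IgG depth, and, added later, leaving out genes at the floor and thinning WT IgG for the counts of genes held by a single genotype. Shares of the WT IP ratio used genes with a mean of at least 10 WT input counts and a pseudocount of 0.5 CPM.

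Genes were named by rule: the writer and adaptors; 7 qPCR transcripts; PTMA; the 10 largest shares per genotype; the 10 largest rises and falls among genes with a mean of at least 100 counts; in each list the 2 highest members and the largest rise and fall; 5 genes each way with opposite IgG and input changes; and 3 genes per genotype at the floor in the other. Exon length and base composition were read from the GRCh37 sequence at the table's positions. The text gives a part of the genes so named, and genes that may not be named were not replaced. IFIT5 was named after its values were seen.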

Additional observations from a re-analysis of the deposited data

Results flagged for a closer look

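These named genes are given because their IgG change differed from their input change in the joint edgeR fit of IgG and input libraries, with the changes called in opposite directions; each value is the IgG change minus the input change on the log2 scale. Among genes higher in siTDP43 IgG and lower in siTDP43 input, the values were 3.24 for ZFP36L2, 3.54 for RPL39, 3.98 for RPS29, 3.50 for RPS19, 4.72 for RPS2 and 2.95 for RPL37A. They were 4.11 for VTRNA1-3, a vault RNA, 2.51 for SNHG5, a snoRNA host, and 12.35 for the histone gene HIST1H4J. Of genes with a mean of at least 100 IgG counts, the 5 largest differences of this kind were 7.96 for TOMM40, 7.68 for TMEM55B, 6.92 for DYRK3, 6.15 for DNTTIP1 and 6.12 for TRIP6. Among genes lower in siTDP43 IgG and higher in siTDP43 input, the values were -4.73 for HNRNPH2, -17.02 for CHRDL1, -14.63 for CYP4V2, -14.35 for PFKFB3 and -13.78 for TBCE. HIST1H4J, HNRNPH2, CHRDL1, CYP4V2, PFKFB3 and TBCE had at most 3 counts in every IgG library of a genotype, so their fitted values depend on the prior count and are no measured folds.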

How the results depend on the processing

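The numbers of genes higher and lower in siTDP43 IgG stayed within 1.5 times the reported 2787 and 3984 in the settings run, among them DESeq2 (2752 and 3829), DESeq2 size factors (2790 and 3979), no count filter (2884 and 4569), a mean of at least 50 counts (1975 and 2796), halved counts (2558 and 3548), WT IgG thinned (2821 and 3807) and edgeR's test against a 2-fold change (2331 and 3379), and no called gene turned direction. Leaving out 1 library gave 2635 to 2820 higher and 3712 to 4264 lower; for the change beyond input 3148 to 3231 and 4545 to 4665, beyond IP 3038 to 3154 and 3805 to 3884, for input 2184 to 2219 and 3015 to 3132, and for IP 3032 to 3119 and 4617 to 4920. The siTDP43 over WT ratio of the PTMA share was 0.229 to 0.269. With no fold threshold the inputs gave 5414 higher and 5699 lower and IP 5037 higher. The replicate numbers did not pair the libraries (correlations of 0.002 to 0.018), and with the replicate block 2624 genes were higher and 3815 lower in IgG. Genes that changed sign were not called either way. Under total count scaling the changes were -0.429 for NAT10, -0.050 for GAPDH, -0.069 for RPL8, -0.084 for RPL3, -0.069 for EIF3L, -0.196 for HSP90AA1, -0.128 for HNRNPC, -0.410 for HIST1H4C, -0.257 for TUBA1B and -0.292 for BIRC5, as this scaling moves all genes down. NAT10 was also -0.005 with no filter, -0.022 in the fit of 17 libraries, -0.083 with the GC trend removed and between -0.227 and 0.319 with 1 library left out. LAMP1 was 0.014 at a mean of 50 counts, 0.001 with the block, 0.046 with WT IgG thinned and -0.230 to 0.114 with 1 library left out. RPL23 was 0.074 at a mean of 50 counts, 0.013 with counts halved, 0.046 with WT IgG thinned and -0.051 to 0.035 with 1 library left out. HIST1H4C was -0.000 in the fit of 17 libraries, -0.069 with the GC trend removed and -0.062 to 0.148 with 1 library left out. For these the cause was not tested. Thinning WT IgG to the siTDP43 IgG total moved the genes held by WT IgG alone from 1168 to 615 and by siTDP43 IgG alone from 113 to 178. The siTDP43 IgG libraries were the shallowest of the series, which limits what could be measured of rare transcripts there.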
